A study of Mus musculus with 4 samples.

Results

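Fatty acid oxidation was followed through 32 genes that encode the carnitine shuttle, the long-chain acyl-CoA synthetases, the mitochondrial and peroxisomal oxidation enzymes and their regulators. They were given as a named list of mitochondrial and peroxisomal oxidation, carnitine shuttle and regulator genes, and all 32 were found by symbol among the 24235 genes of the deposited tables. Of the 32, 30 reached 1 FPKM (a read density that divides fragments by transcript length and by a scaling factor of the library) in at least 1 library, as did 10680 genes in all. The exceptions were Ehhadh, at 0.236 to 0.683 FPKM, and Ppara, listed at 0 in all 4 libraries.

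The study profiled mRNA of macrophages grown with M-CSF, a macrophage growth factor, from bone marrow of C57BL/6 mice aged 7 weeks. There were 4 groups of 1 library each, namely wild type (WT) cells and cells labelled Sema6D-/-, either unstimulated or given 100 ng/ml LPS (lipopolysaccharide of the bacterial cell wall) for 4 h. The series title sets the work in lipid metabolism and macrophage polarization downstream of Sema6D, a membrane-bound semaphorin. The treatment text is the same for every sample and mentions LPS, so the unstimulated libraries were identified by their titles. The labels do not name the deleted part of the gene, or the number or sex of the mice.

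No result below has a replicate check, because each group was 1 library, and no test between groups was run. Estimated depth was 17100000 to 23400000 fragments per library. A log2 ratio is of FPKM + 1 unless an interval in square brackets follows it. Such a ratio was computed without the added 1, and the interval is the 95% counting interval, which covers counting error only. "Higher" and "lower" compare single libraries. In bulk RNA, fewer cells of a type and less RNA per cell cannot be told apart.

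Libraries differed in ways that touch the genotype comparisons. Sema6d measured 0.304 and 0.219 FPKM in WT without and with LPS, against 0.563 and 0.592 in the pair of libraries labelled Sema6D-/-. It was thus not lower under the Sema6D-/- label, at levels below 1 FPKM on 20 to 77 fragments. As the deleted part of the gene is not named, the label could not be checked from this level. Xist, which coats the silenced X in females, stood at 22.3 and 21.4 FPKM in WT, against 0.0333 and 0.0306 in the pair labelled Sema6D-/-. The Y-linked genes Ddx3y, Eif2s3y, Kdm5d and Uty were at 0.0207 FPKM or less in WT and at 3.36 to 50.4 in the other genotype. All 8 macrophage markers were above 1 FPKM in every library, and they differed by genotype in both directions. Without LPS, Itgam measured 404 FPKM in WT against 225, and Csf1r 644 against 1049. With LPS, Mertk measured 14.9 against 61.3. Of 8 neutrophil markers, 7 reached 1 FPKM in every library, and their summed level was 828 and 1272 FPKM in WT against 234 and 359.8 in the pair labelled Sema6D-/-. None of these 8 was at 0, and the granulocyte marker Ly6g measured 0.275 to 0.450 FPKM. Summed over 5 dendritic cell markers the level was 0.859 and 3.54 in WT against 8.29 and 19.5. Of these, Itgax, which macrophages can also express, measured 0.178 and 0.349 in WT against 6.86 and 16.3. With LPS, Xcr1 was near equal, at 2.52 in WT against 2.50. No lymphocyte, erythroid, or stromal and adipocyte marker reached 1 FPKM (0 of 7, 0 of 5 and 0 of 8), and the adipocyte hormone Adipoq was at 0 throughout. The part of sex, of the macrophage markers and of neutrophil or dendritic cell RNA in the genotype ratios was not tested.

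Fatty acid oxidation breaks an acyl chain down by repeated cycles of dehydrogenation, hydration, a further dehydrogenation and thiolytic cleavage. Long chains are first joined to CoA, then carried into mitochondria as carnitine esters, while peroxisomes shorten very long and branched chains. In macrophages the pathway is associated with alternative activation, and nuclear receptors of the PPAR family are known to activate its genes.

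Across the 30 measured genes, few differed by 2-fold with LPS, and those that did lay on both sides of 0. In WT 0 of 30 were at least 2-fold higher and 1 was lower, against 10.7% higher and 4.85% lower of 10375 genes. In the pair labelled Sema6D-/- 2 were higher and 3 lower, against 14% higher and 8.81% lower of 10398 genes. The one lower in WT was the receptor gene Ppard. In the pair labelled Sema6D-/- the higher genes were Acadl and Eci2, and the lower were Ppard, Crat and Acadm. These splits depended on scaling. After rescaling to a common total, WT had 0 higher and 6 lower, against 6.87% and 14.4% of all genes on that scale, and the pair labelled Sema6D-/- had 0 and 11, against 7.16% and 28.8%. After centring on the median of well-expressed genes, WT had 0 and 1, against 8.67% and 7.56%, and the other genotype 0 and 6, against 11.6% and 12%.

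The median log2 LPS ratio of the 30 genes was 0.07 in WT and -0.04 in the pair labelled Sema6D-/-. Over all genes tested the medians were -0.00 and 0.01. Individual genes ranged from -1.01 to 0.75 in WT and from -1.30 to 1.18 in the other genotype. The 2 LPS comparisons share no library, and 28 of the 30 genes had ratios of the same sign in both, 14 above 0 and 14 below. That is 93.3%, against 86.5% of all genes. Acadvl and Eci1 had opposite signs. With the smaller size rule of 1.5-fold, WT had 3 genes higher and 3 lower (17.3% and 13.9% of all genes), and in the pair labelled Sema6D-/- 5 were higher and 8 lower (22% and 20.1%). Ratios lay above 0 for 16 of 30 genes in WT and 14 in the other genotype, against 50% and 50.6% of all genes. At 1.5-fold, Acadl and Acaa1a were higher in both genotypes (6.67% of the 30 genes, against 15.4% of all genes), and Ppard and Acsl3 were lower in both (6.67%, against 11.5%). The ratio was larger in size in the pair labelled Sema6D-/- for 23 of 30 genes (76.7%), against 68.5% of 10680 genes. Rescaling to a common total lowered every LPS ratio, with shifts of -0.530 in WT and -0.756 in the other genotype before the added 1, and left Acsl5 and Acadl as the only genes of the 30 above 0 in both. Median centring left 7 above 0 in both and 19 below.

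**Figure D1:**
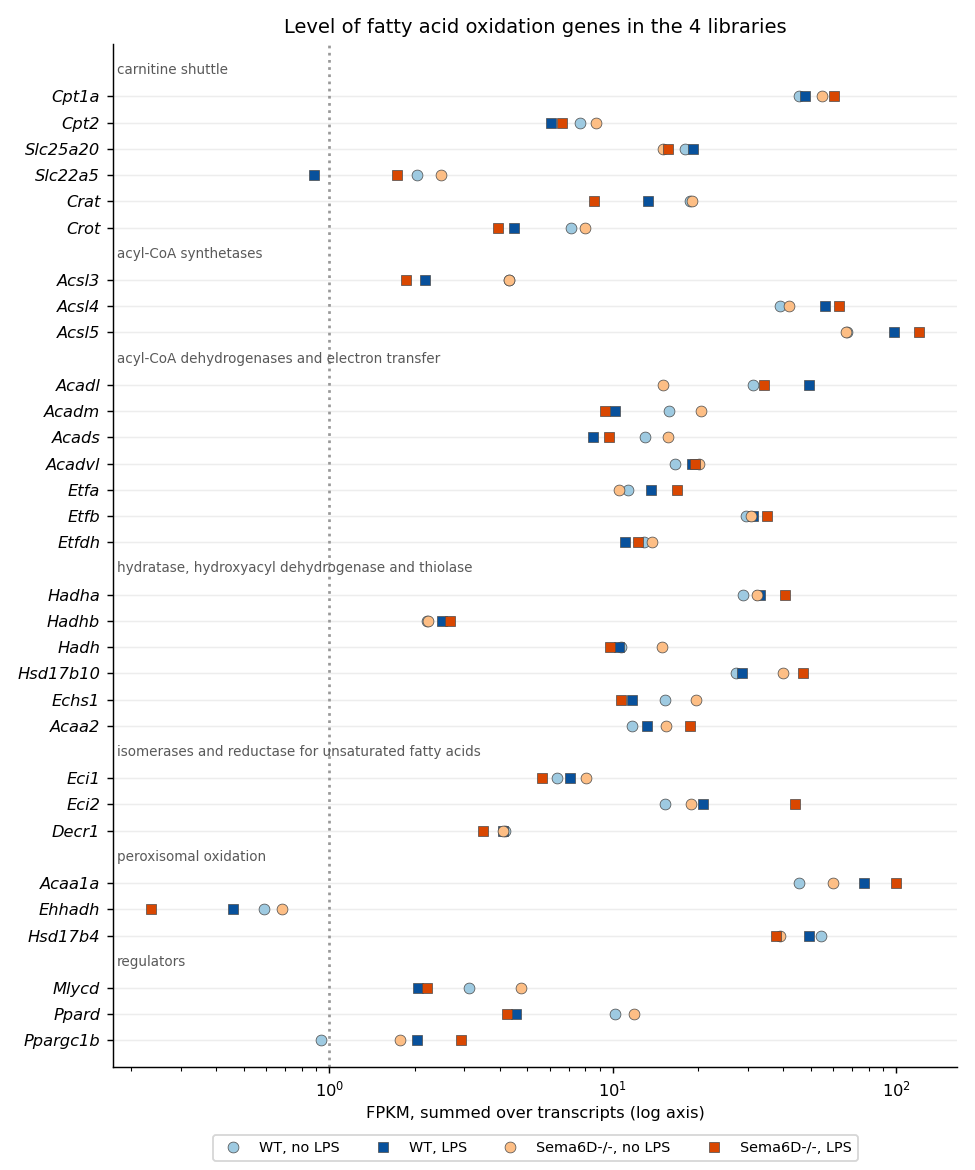
Level of each fatty acid oxidation gene in FPKM (log axis), with 1 point for each of the 4 libraries and genes grouped by role; the dotted line marks 1 FPKM and Ppara, at 0, is not drawn. Acsl5, Acaa1a, Cpt1a, Acsl4 and Hsd17b4 lie at the right, and Hadhb lies far to the left of its partner Hadha.

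Levels spanned a wide range. The median of the 30 genes was 14.2 FPKM in WT without LPS, 12.5 with LPS, 15.3 in the unstimulated library labelled Sema6D-/- and 11.5 in the stimulated one. The median over all 10680 genes was 9.39 to 9.67. Acsl5 held the highest level in every library. Without LPS it was followed in WT by Hsd17b4, Acaa1a and Cpt1a, and in the library labelled Sema6D-/- by Acaa1a, Cpt1a and Acsl4. With LPS Acaa1a followed it in both genotypes, ahead of Acsl4.

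Entry into mitochondria begins with Cpt1a, which places long acyl chains on carnitine and is the step that malonyl-CoA inhibits. Cpt1a measured 45.3 FPKM in WT without LPS, 47.6 with LPS, 54.7 in the unstimulated library labelled Sema6D-/- and 60.6 in the stimulated one. All 4 libraries lay close together, with those labelled Sema6D-/- above the WT pair. The log2 LPS ratio was 0.07 [0.01, 0.13] in WT and 0.15 [0.09, 0.21] in the pair labelled Sema6D-/-, and both turned negative after rescaling to a common total. Slc25a20, the translocase that exchanges acylcarnitine for carnitine across the inner membrane, was near level too, at 15.1 to 19.2 FPKM. Cpt2, which returns the chain to CoA inside the mitochondrion, was slightly lower with LPS in both genotypes (-0.29 and -0.35). Cpt1a exceeded Cpt2 by 5.91 to 9.13 times within a library.

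The other carnitine genes were lower with LPS in both genotypes. Crat moves acetyl groups between CoA and carnitine. It measured 18.7 FPKM in WT without LPS, 13.3 with LPS, 19.01 in the unstimulated library labelled Sema6D-/- and 8.56 in the stimulated one. The unstimulated libraries were nearly equal, and the stimulated library labelled Sema6D-/- stood lowest. The log2 LPS ratios were -0.49 [-0.60, -0.38] in WT and -1.15 [-1.30, -1.01] in the pair labelled Sema6D-/-. Crot, which makes carnitine esters of medium chains in peroxisomes, had -0.67 [-0.89, -0.46] and -1.02 [-1.28, -0.77]. Slc22a5, the carnitine transporter of the plasma membrane, was the lowest of the shuttle genes at 0.886 to 2.49 FPKM. It had -1.21 [-1.68, -0.75] and -0.51 [-0.91, -0.11], on 51 to 179 fragments.

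Activation of the chain to acyl-CoA divided the synthetases. Acsl5, found on mitochondria and endoplasmic reticulum, measured 67.3 FPKM in WT without LPS and 98.0 with LPS. In the pair labelled Sema6D-/- it measured 66.8 and 120.5. Both stimulated libraries lay above both unstimulated ones, with log2 ratios of 0.54 in WT and 0.84 in the other genotype, which shrank to 0.01 and 0.10 after rescaling to a common total. Acsl4, which prefers arachidonic acid, had 0.51 and 0.58, which became -0.01 and -0.16. Acsl3, which serves lipid droplet growth, went the other way. It measured 4.30 and 2.18 FPKM in WT without and with LPS, and 4.32 and 1.86 in the pair labelled Sema6D-/-. The unstimulated libraries were again nearly equal, and the log2 LPS ratio was -0.97 [-1.28, -0.68] in WT and -1.21 [-1.58, -0.85] in the other genotype. Acsl5 exceeded Acsl3 by 15.7 and 44.9 times in WT without and with LPS, and by 15.5 and 64.7 times in the pair labelled Sema6D-/-.

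Acsl1, another long-chain synthetase, is outside the 32 genes. It measured 15.3 FPKM in WT without LPS, 103 with LPS, 56.1 in the unstimulated library labelled Sema6D-/- and 305 in the stimulated one. Relative to Acsl5 it went from 0.228 to 1.05 in WT and from 0.840 to 2.53 in the pair labelled Sema6D-/-. Acsl1 was thus the lower of the pair in both unstimulated libraries and the higher in both stimulated ones.

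**Figure D2:**
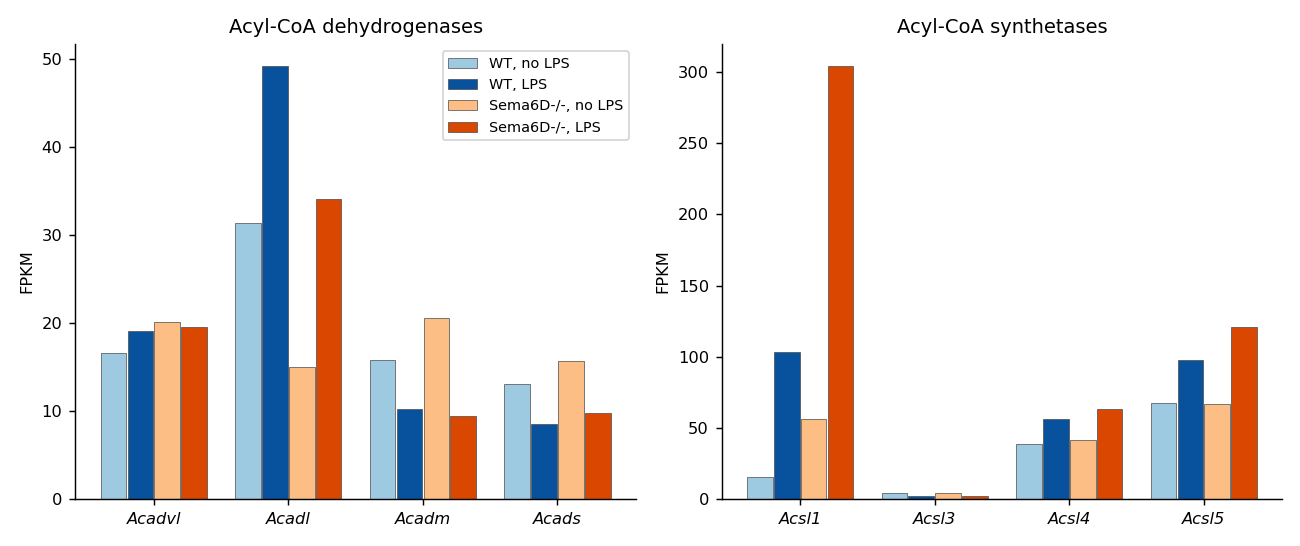
FPKM of 4 acyl-CoA dehydrogenases (left) and 4 acyl-CoA synthetases (right), with 1 bar per library and no error bars since each group is 1 library. Acadl is taller with LPS in both genotypes while Acadm and Acads are shorter, and Acsl1 reaches 305 FPKM in the stimulated library labelled Sema6D-/-.

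The dehydrogenases of the first oxidation step differed in their LPS ratios. Acadl, the long-chain acyl-CoA dehydrogenase, measured 31.4 FPKM in WT without LPS and 49.2 with LPS. In the pair labelled Sema6D-/- it measured 15.003 and 34.1. LPS libraries were higher within each genotype, and the unstimulated library labelled Sema6D-/- was the lowest of the 4. The log2 LPS ratio was 0.65 [0.55, 0.75] in WT and 1.18 [1.03, 1.34] in the other genotype, and with the added 1 it stayed above 0 after rescaling to a common total, at 0.12 and 0.41.

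Acadm and Acads, which act on medium and short chains, were lower with LPS. Acadm measured 15.8 and 10.2 FPKM in WT without and with LPS, and 20.6 and 9.41 in the pair labelled Sema6D-/-. Its log2 ratios were -0.63 [-0.80, -0.45] and -1.13 [-1.33, -0.93]. Both stimulated libraries lay below both unstimulated ones. Acads had -0.61 [-0.81, -0.41] and -0.68 [-0.90, -0.47], with 13.04 and 15.6 FPKM in the unstimulated libraries of WT and of the other genotype. Acadvl, for very long chains, stayed between 16.6 and 20.2 FPKM, with 0.20 [0.06, 0.34] and -0.04 [-0.19, 0.10]. As a result the level of Acadl was 1.99 times that of Acadm in WT without LPS and 4.82 times with LPS. In the pair labelled Sema6D-/- the same quotient went from 0.730 to 3.62, so there Acadl lay below Acadm before LPS and above it after.

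Electrons from these dehydrogenases pass to the flavoprotein ETF, made of Etfa and Etfb, and on to ubiquinone through Etfdh. Etfa measured 11.3 and 13.6 FPKM in WT, against 10.5 and 16.9 in the pair labelled Sema6D-/-. Its log2 LPS ratio was 0.27 [0.05, 0.48] and 0.68 [0.44, 0.91], and with the added 1 both fell below 0 after rescaling to a common total. Etfb (0.08 and 0.18) and Etfdh (-0.21 and -0.15) were nearer to level, and the sign of Etfb turned under the same rescaling.

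In the later steps of the cycle the genes of the mitochondrial trifunctional protein had very different levels. Hadha, its alpha subunit with hydratase and long-chain hydroxyacyl dehydrogenase activity, measured 28.8 and 33.2 FPKM in WT, against 32.2 and 40.6 in the pair labelled Sema6D-/-. Hadhb, the beta subunit with thiolase activity, measured 2.22 and 2.49 in WT and 2.22 and 2.67 in the other genotype, on 80 to 124 fragments. Hadha exceeded Hadhb by 12.98 to 15.2 times in each library, although the proteins form 1 complex. The log2 LPS ratios of Hadha were 0.20 [0.13, 0.28] and 0.33 [0.25, 0.41], while those of Hadhb, 0.18 [-0.23, 0.58] and 0.26 [-0.19, 0.71], had intervals that include 0. With the added 1 all 4 turned negative after rescaling to a common total. Nearly all of the Hadhb level (at least 99.98%) was assigned to 1 of its 3 listed transcripts.

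The genes lie head to head, which their RefSeq promoter windows (GRCm38.p6, 250 bases before to 50 after the start of transcription, each 5' to 3' on its own strand) make visible. The windows overlap by 228 bases, shown in capitals, and the starts are 273 bases apart. Hadha is at chr5:30154931-30155230 on the minus strand and Hadhb at chr5:30155003-30155302 on the plus strand.
Hadha: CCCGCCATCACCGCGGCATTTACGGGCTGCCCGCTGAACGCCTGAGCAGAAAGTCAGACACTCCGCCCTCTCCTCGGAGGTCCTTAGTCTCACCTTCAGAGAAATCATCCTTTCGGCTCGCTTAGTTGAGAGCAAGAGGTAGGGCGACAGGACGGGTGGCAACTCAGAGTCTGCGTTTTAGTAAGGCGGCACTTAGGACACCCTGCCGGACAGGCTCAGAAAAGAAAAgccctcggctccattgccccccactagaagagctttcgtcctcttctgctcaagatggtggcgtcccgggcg
Hadhb: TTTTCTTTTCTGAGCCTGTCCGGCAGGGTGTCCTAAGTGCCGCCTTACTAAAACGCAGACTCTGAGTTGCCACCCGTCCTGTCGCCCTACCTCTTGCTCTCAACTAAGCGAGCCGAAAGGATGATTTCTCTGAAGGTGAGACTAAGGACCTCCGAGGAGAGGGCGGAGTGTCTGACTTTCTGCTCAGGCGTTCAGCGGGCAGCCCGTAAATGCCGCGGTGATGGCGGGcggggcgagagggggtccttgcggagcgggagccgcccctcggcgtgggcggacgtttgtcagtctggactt

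Of the remaining enzymes of this stage, Echs1 and Hadh carried lower values with LPS, mostly in the pair labelled Sema6D-/-. Echs1, the short-chain enoyl-CoA hydratase, measured 15.3 and 11.7 FPKM in WT, against 19.6 and 10.7 in the other genotype. Its log2 ratio was -0.39 [-0.59, -0.19] in WT and -0.87 [-1.09, -0.65] in the pair labelled Sema6D-/-. Hadh, the short-chain hydroxyacyl-CoA dehydrogenase, had -0.03 [-0.23, 0.17] and -0.60 [-0.82, -0.38]. The library that stood apart for Hadh was the unstimulated one labelled Sema6D-/-, at 14.9 FPKM against 9.82 to 10.7 in the others. Acaa2, the mitochondrial thiolase, had 0.17 and 0.27, and Hsd17b10, a dehydrogenase that also belongs to mitochondrial RNase P, had 0.07 and 0.23. Those 4 ratios turned negative after rescaling to a common total.

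Double bonds need auxiliary enzymes, and here the isomerases parted. Eci2, an isomerase found in mitochondria and peroxisomes, measured 15.3 FPKM in WT without LPS, 20.9 with LPS, 18.9 in the unstimulated library labelled Sema6D-/- and 44.0 in the stimulated one. The last library was more than 2-fold above each of the others. The log2 LPS ratio was 0.44 [0.27, 0.61] in WT, which with the added 1 became -0.08 after rescaling to a common total, and 1.22 [1.06, 1.37] in the pair labelled Sema6D-/-. Eci1, the mitochondrial isomerase, had 0.15 [-0.18, 0.48] and -0.53 [-0.92, -0.14], on 86 to 182 fragments. Decr1, the dienoyl-CoA reductase, stayed between 3.49 and 4.18 FPKM.

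Eci2 has 3 transcripts in the tables, and the assignment of fragments to them differed between libraries. The non-coding NR_073427 held 0.778% of the Eci2 level in WT without LPS and 23.8% with LPS, and 0.0815% and 12.2% in the pair labelled Sema6D-/-. Without it, the coding transcripts summed to 15.2 and 15.9 FPKM in WT, against 18.9 and 38.6 in the other genotype. Their log2 LPS ratios were 0.06 and 0.99. The leading coding transcript NM_001110331 alone measured 12.2 and 8.29 FPKM in WT, against 15.1 and 29.8 in the pair labelled Sema6D-/-, so in WT its direction was opposite to that of the sum. Acsl4 also had an uneven assignment, with NM_001033600 at 8.78, 7.67 and 18.9 FPKM in 3 libraries and listed at 0 in WT with LPS.

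**Figure D3:**
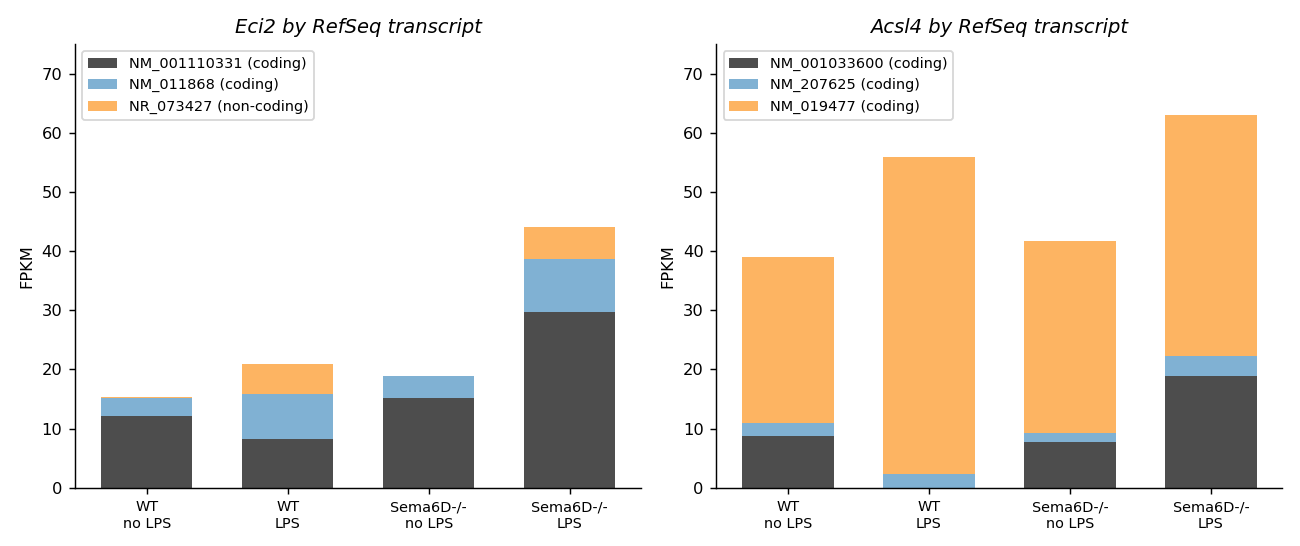
FPKM of Eci2 (left) and Acsl4 (right) in the 4 libraries, stacked by RefSeq transcript. The non-coding Eci2 transcript is at 4.97 and 5.35 FPKM in the stimulated libraries and at most 0.119 in the others, and the Acsl4 transcript NM_001033600 is at 0 in WT with LPS while the gene totals run from 38.9 to 63.0 FPKM.

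Among the peroxisomal genes, Acaa1a, a 3-ketoacyl-CoA thiolase, measured 45.4 and 77.0 FPKM in WT, against 59.8 and 100.3 in the pair labelled Sema6D-/-. The LPS ratio was almost equal in the genotypes, at 0.76 [0.68, 0.85] and 0.75 [0.66, 0.83], and with the added 1 it moved to 0.23 and -0.01 on the common total. Its paralog Acaa1b is close in sequence, so reads could be shared, and it was listed at 0.123 FPKM or less. Hsd17b4, the D-bifunctional protein, was near level with LPS (-0.14 and -0.04). Ehhadh, the L-bifunctional protein, rested on 11 to 50 fragments, too few to give a ratio here.

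Ppard, a lipid-activated nuclear receptor of the PPAR family, measured 10.2 FPKM in WT without LPS and 4.57 with LPS. In the pair labelled Sema6D-/- it measured 11.8 and 4.23. Both stimulated libraries were below 5 FPKM and both unstimulated ones above 10, with log2 ratios of -1.16 [-1.35, -0.96] and -1.49 [-1.71, -1.27]. Ppara, the PPAR best known for driving oxidation in liver, was listed at 0. Ppargc1b, a coactivator of mitochondrial genes, measured 0.936 and 2.05 FPKM in WT, against 1.78 and 2.91 in the other genotype. Its log2 ratio was 1.13 [0.75, 1.51] in WT and 0.71 [0.37, 1.05] in the pair labelled Sema6D-/-, and the latter turned to -0.03 with the added 1 after rescaling to a common total. Mlycd, which removes malonyl-CoA, had -0.60 [-0.99, -0.21] and -1.10 [-1.51, -0.70].

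**Figure D4:**
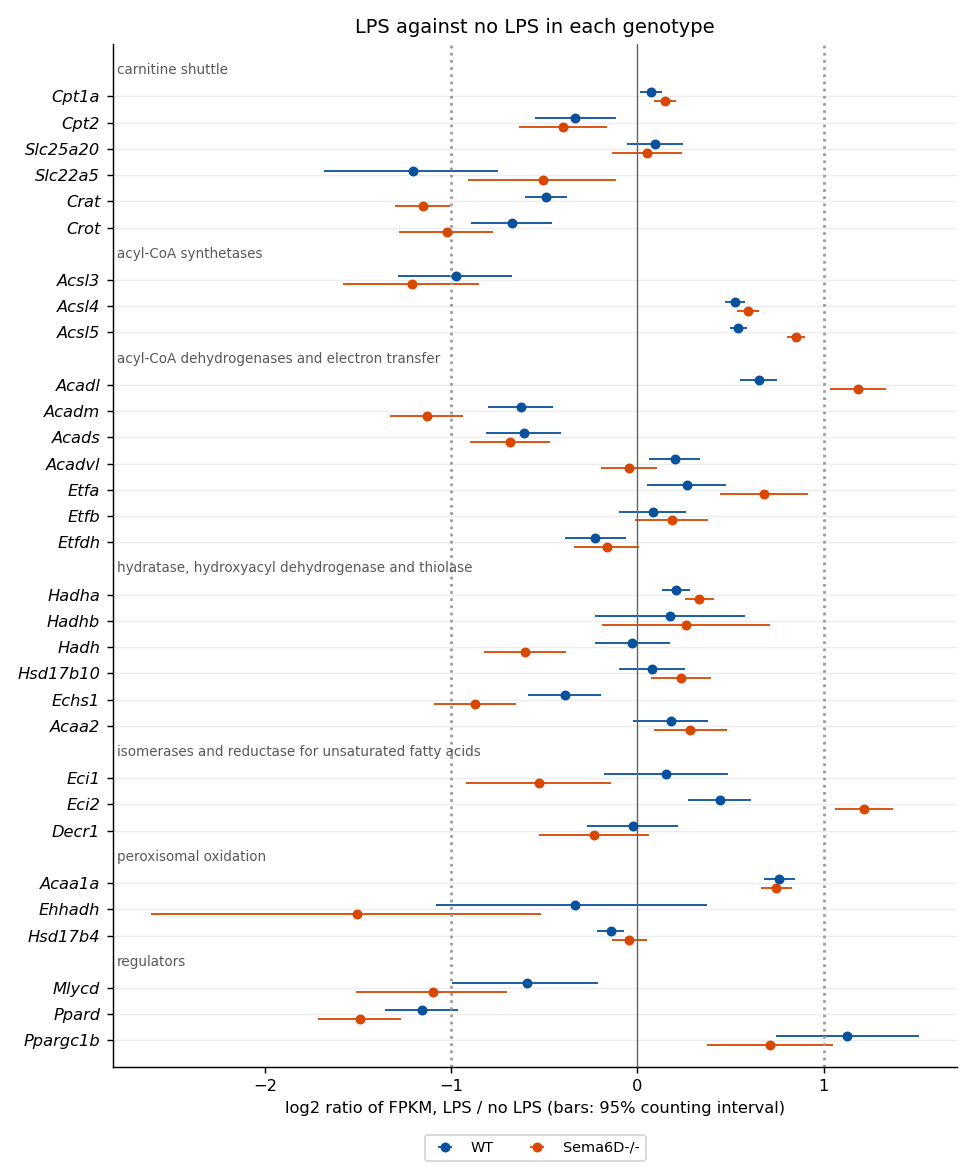
Log2 ratio of FPKM with LPS to without LPS for each gene in WT and in the pair labelled Sema6D-/-, without the added 1, with 95% counting intervals; dotted lines mark 2-fold. On the deposited scale Acadl, Eci2, Acaa1a and Ppargc1b are among the genes to the right. Ppard, Acadm, Crat, Acsl3 and Slc22a5 are among those to the left. Rescaling to a common total would move WT points by -0.530 and the other points by -0.756.

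PPAR acts with RXR on a direct repeat of the hexamer AGGTCA, so the promoter windows of the list were searched for it. Of the 32 genes 27 had a RefSeq window, and Crat, Acaa2, Decr1, Hsd17b4 and Ppargc1b had none. The repeat, as AGGTCA and AGGTCA separated by a single base, on either strand, was in 0 of 27 windows, against 0.0396% of all 32851 windows of the same length. The single hexamer was in 4 of 27 (14.8%), against 16.3% of all. The estrogen-related receptor element TCAAGGTCA, which contains the hexamer, was in 0 of 27 against 0.423%, and a consensus NF-kB motif in 0 of 27 against 1.2%. With shares this low, 0 is the likely count in any 27 windows, so these zeros cannot tell the list from other genes. Variants of the motifs and sites outside the windows were not searched. The 4 windows with the hexamer are shown because they belong to genes with different LPS ratios, near level for Cpt1a and Acadvl and lower for Acadm and Echs1. Capitals mark the hexamer or its reverse complement. They are chr19:3323051-3323350 on the plus strand, chr11:70015379-70015678, chr3:153944594-153944893 and chr7:140116372-140116671 on the minus strand, in the order printed.
Cpt1a: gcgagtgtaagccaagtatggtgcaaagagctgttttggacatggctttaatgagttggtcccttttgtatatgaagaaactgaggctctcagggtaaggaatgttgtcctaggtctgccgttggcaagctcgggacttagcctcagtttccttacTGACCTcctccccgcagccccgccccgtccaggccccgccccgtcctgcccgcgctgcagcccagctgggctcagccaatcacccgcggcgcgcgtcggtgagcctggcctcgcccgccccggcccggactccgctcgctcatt
Acadvl: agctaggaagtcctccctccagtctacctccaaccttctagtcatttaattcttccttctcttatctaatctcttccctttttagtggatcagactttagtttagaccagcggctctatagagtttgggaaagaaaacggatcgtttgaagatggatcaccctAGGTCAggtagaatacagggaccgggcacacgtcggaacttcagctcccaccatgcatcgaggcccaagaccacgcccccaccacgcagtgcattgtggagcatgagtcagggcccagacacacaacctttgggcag
Acadm: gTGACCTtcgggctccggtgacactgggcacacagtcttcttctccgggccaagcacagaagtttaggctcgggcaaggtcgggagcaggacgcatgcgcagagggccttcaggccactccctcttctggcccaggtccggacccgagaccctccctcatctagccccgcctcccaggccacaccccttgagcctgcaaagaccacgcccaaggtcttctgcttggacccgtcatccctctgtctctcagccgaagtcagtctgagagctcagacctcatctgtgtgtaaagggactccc
Echs1: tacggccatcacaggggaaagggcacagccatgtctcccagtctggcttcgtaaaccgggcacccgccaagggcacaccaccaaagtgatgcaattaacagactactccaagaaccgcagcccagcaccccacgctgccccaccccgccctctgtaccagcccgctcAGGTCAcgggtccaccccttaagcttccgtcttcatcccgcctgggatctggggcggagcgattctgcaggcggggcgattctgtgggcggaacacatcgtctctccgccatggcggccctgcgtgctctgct
The hexamer begins 94, 87, 249 and 83 bases before the start of transcription in the same order. A match is a description of letters and does not show binding.

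Between genotypes without LPS, most of the list differed little. Of the 30 genes 0 were at least 2-fold higher and 1 was lower in the library labelled Sema6D-/-, against 2.51% and 2.19% of 10322 genes. The lower gene was Acadl, with a log2 ratio of -1.07 [-1.21, -0.93]. The median was 0.18, against 0.04 over all genes, and 24 of 30 ratios lay above 0, against 55.9% of all genes. At 1.5-fold 0 were higher and 1 lower, against 6.96% and 5.82%. Genes above 0 included Ppargc1b (0.93 [0.54, 1.32]), Mlycd (0.60 [0.31, 0.90]), Hsd17b10 (0.56 [0.40, 0.72]), Hadh (0.48 [0.30, 0.66]) and Acaa1a (0.40 [0.31, 0.48]). On the lower side were Hsd17b4 (-0.48 [-0.56, -0.41]) and Slc25a20 (-0.25 [-0.41, -0.09]). Xist and the Y-linked genes split the libraries as the genotype labels do, so genotype and sex cannot be told apart for any gene. Of the list, Hsd17b10 and Acsl4 are on the X chromosome.

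With LPS, 1 of 30 genes was at least 2-fold higher in the library labelled Sema6D-/- and 0 were lower, against 3.09% and 3.18% of 10078 genes. The gene was Eci2, at 1.08 [0.92, 1.23], which with the added 1 was 1.04 and became 0.81 after rescaling to a common total. At 1.5-fold 2 were higher and 0 lower, against 10% and 7.91%, and 18 of 30 ratios lay above 0, against 55.2%. Hsd17b10 had 0.71 [0.53, 0.89], and Slc22a5 at 0.98 [0.46, 1.51] on 51 and 82 fragments. Crat had -0.64 [-0.80, -0.49] and Acadl -0.53 [-0.65, -0.42]. The median of the 30 genes was 0.09, against 0.04 over all genes, and became -0.08 after rescaling to a common total.

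The genotype comparisons in the 2 states share no library. Of the 30 genes 16 were above 0 in both (53.3%), 4 below in both (13.3%) and 10 opposite (33.3%). Over all 10680 genes the shares were 39.8%, 29.7% and 29.8%. This split depended on scaling. Rescaling to a common total left 8 of the 30 above 0 in both and 4 below in both, with 18 opposite. Median centring gave 15, 6 and 9. At 1.5-fold 0 of 30 were higher in both and 0 lower in both, against 3.8% and 3.4% of all genes. The 4 below 0 in both were Acadl, Hsd17b4, Slc25a20 and Decr1. Cpt1a (0.27 and 0.34), Acaa2 (0.37 and 0.47), Acaa1a (0.39 and 0.38) and Hsd17b10 (0.54 and 0.69) were among those above 0 in both, also after rescaling to a common total. Acadm, Hadh, Echs1 and Eci1 were above 0 without LPS and below 0 with LPS. Their counting intervals with LPS all include 0, with ratios from -0.10 [-0.34, 0.14] for Hadh to -0.34 [-0.74, 0.07] for Eci1. Crot, Acsl3 and Ppard, also opposite, had intervals with LPS that include 0 too. In the rest of the 10 the interval with LPS excluded 0, while that without LPS included it. With LPS these had -0.64 [-0.80, -0.49] for Crat, 0.30 [0.25, 0.34] for Acsl5 and 0.31 [0.09, 0.54] for Etfa.

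**Figure D5:**
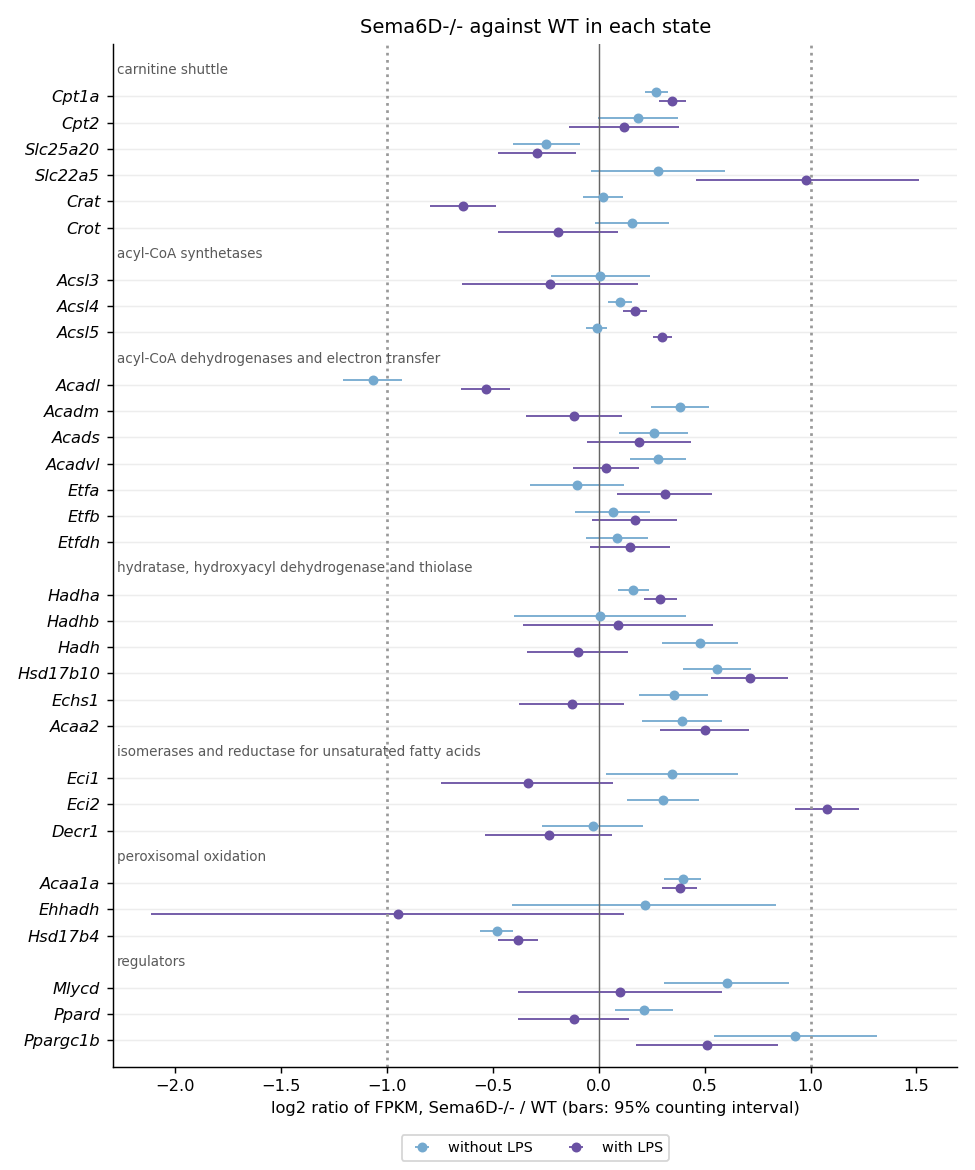
Log2 ratio of FPKM in the library labelled Sema6D-/- to WT for each gene, without and with LPS, computed without the added 1, with 95% counting intervals; dotted lines mark 2-fold. Acadl lies beyond 2-fold to the left without LPS and Eci2 to the right with LPS, and most other genes lie within 2-fold. Ehhadh, below 1 FPKM in every library, is drawn but is not counted among the measured genes.

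The difference of the LPS responses (pair labelled Sema6D-/- minus WT) was at least 2-fold for 0 of 30 genes in either direction, against 1.83% higher and 1.25% lower of 10680 genes. At 1.5-fold Eci2 (0.76) was higher and Crat (-0.60) and Eci1 (-0.59) were lower, against 5.57% and 5.71%. The difference was above 0 for 14 of 30 genes, against 49.3%. Without the added 1 the differences were 0.78 [0.55, 1.00] for Eci2, -0.66 [-0.84, -0.48] for Crat and -0.68 [-1.18, -0.19] for Eci1. Acadl had 0.53 [0.35, 0.71], Hadh -0.58 [-0.87, -0.28] and Acadm -0.50 [-0.76, -0.24]. The response of Acadl was larger from a lower unstimulated level, and its stimulated level stayed below that of WT.

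Further genes of the pathway came from lists outside the 32. Their counts at 2-fold with LPS stand against 10.7% of all genes higher and 4.85% lower in WT, and 14% and 8.81% in the pair labelled Sema6D-/-. Among 24 measured further oxidation enzymes, LPS gave 1 that was 2-fold higher and 1 that was 2-fold lower in WT, and 2 and 4 in the pair labelled Sema6D-/-. Acsl1 (2.67 and 2.42) and Phyh, which starts the breakdown of phytanic acid (0.76 and 1.08), were higher in both. Nudt7, a peroxisomal CoA diphosphatase (-1.44 and -1.41), was lower in both. All these kept their sign after rescaling to a common total. Among 12 measured transcriptional regulators 0 were higher and 3 lower in each genotype. Rxra, the partner of PPARs, measured 23.9 and 5.23 FPKM in WT, against 20.2 and 2.47 in the other genotype. Pparg had -1.09 and -0.81, and Rxrb -0.74 and -0.99.

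Genes that feed or restrain oxidation were mixed, and the same shares of all genes apply. Of 11 measured lipolysis and uptake genes 0 were 2-fold higher or lower with LPS in WT, and 1 was higher in the pair labelled Sema6D-/-, the fatty acid carrier Fabp4 (0.76 and 1.53). Lipa, the lysosomal acid lipase, had -0.49 and -0.65. In the malonyl-CoA and AMPK list 1 gene was lower in each genotype and 0 higher, of 8 and 7 measured. That gene was Prkag2, a gamma subunit of AMPK (6.68 to 1.69 FPKM in WT, against 5.27 to 1.03 in the other genotype). Among PPAR targets 0 were higher, and 1 of 6 and 2 of 5 measured were lower, against 4.85% and 8.81% of all genes. Angptl4, a secreted lipase inhibitor, had -2.49 and -2.03, and the lipid droplet protein Plin2 -0.10 and -0.12. With LPS, Angptl4 was at 0.175 FPKM in WT and 0.0354 in the other genotype, on 11 and 2 fragments. The added 1 therefore sets the size of its ratios, which were -4.99 [-6.00, -4.14] and -6.36 [-9.42, -4.49] without it. Of 5 measured ketone body genes 0 and 2 were lower and 0 higher. Aacs, which activates acetoacetate to its CoA ester, had log2 LPS ratios of -0.31 and -0.94.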

How the data were processed

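Messenger RNA of 4 macrophage libraries was prepared with a stranded kit, per the labels' protocols. The deposited values were FPKM for 34487 RefSeq transcripts. They were made with Cuffnorm 2.2.1, TopHat2 2.0.13, SAMtools 0.1.19 and Bowtie2 2.2.3 on the mouse build mm9, per the submitters' processing notes; options, annotation and scaling between libraries are not given in the sources used here. Names came from the GRCm38 RefSeq table (34163 transcripts) or GENCODE vM21 (187); 137 unmatched transcripts were left out. Transcripts were summed per gene. Genes at 1 FPKM or more in a library compared were compared at 2-fold and at 1.5-fold, on log2(FPKM + 1). Fragments behind a value were recovered from the steps of low FPKM. With 200 bases taken off the transcript length, 72.3 to 74.4% of low values were whole multiples within 0.1. Chance gives 20% for a step fixed in advance, but step and length offset were chosen here to maximise that share. Per FPKM and kb of length, the steps gave 30.6 and 20.1 fragments in WT without and with LPS. In the pair labelled Sema6D-/- they gave 22.1 and 16.4. Estimated totals in the same order were 23400000, 22100000, 17100000 and 21300000 fragments, so the deposited values were not scaled by these totals alone. Counting intervals are exact binomial (Clopper-Pearson) at 95%, those of response differences normal approximations, and neither covers error in the steps. Procedures were tested on simulated data. Some genes of the further lists are not reported here. Named genes were all 32 members and up to 4 per further list, by the mean absolute LPS ratio, at 5 FPKM or more. Members and lists were chosen with earlier results of these data known. Python 3.11.15, pandas 2.3.3, NumPy 2.4.6 and SciPy 1.17.1 were used.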

Additional observations from a re-analysis of the deposited data

How the results depend on the processing

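With 1 library per group no replicate could be left out, and no paired analysis was possible because each group was a single library. Under 8 alternatives no ratio of a gene past 2-fold changed sign. With 0.1 FPKM added, LPS counts became 1 higher and 2 lower in WT, and 6 lower in the pair labelled Sema6D-/-. With 5 FPKM added, 0 were lower in WT, 1 was higher and 0 lower in the pair labelled Sema6D-/-, and the genotype counts were 0 lower without LPS and 0 higher with LPS. After rescaling to a common total, 6 were lower in WT (median -0.44), 0 higher and 11 lower in the pair labelled Sema6D-/- (median -0.77), 0 higher by genotype with LPS, and the median difference of responses was -0.24. Median centring gave 0 higher and 6 lower with LPS in the pair labelled Sema6D-/-. With the leading transcript only, 1 was higher there and 1 difference of responses was higher, that of Eci2. At 1.5-fold, 3 were higher and 3 lower with LPS in WT, against 17.3% and 13.9% of all genes, and 5 and 8 in the pair labelled Sema6D-/-, against 22% and 20.1%. By genotype with LPS 2 were higher at 1.5-fold (10% of all genes), and 1 difference of responses was higher and 2 lower. Among protein-coding genes alone, a background chosen after seeing the data, LPS in WT gave 10.4% higher and 4.42% lower at 2-fold. Removing the filter or raising it to 5 FPKM kept every count within 1.5 times. Fewer than 100 fragments in at least 1 library lay behind Hadhb, Slc22a5, Ehhadh, Eci1, Mlycd, Acsl3 and Ppargc1b.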
